A study of Mus musculus with 12 samples.

Results

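The unfolded protein response and the integrated stress response were followed through 35 genes in mouse peritoneal macrophages. The 35 genes were chosen by symbol as endoplasmic reticulum (ER) chaperones and degradation factors, stress sensors, ATF4 targets and one-carbon enzymes. All 35 were among the 41388 Ensembl genes of the count tables, and all 35 were among the 12914 genes with enough counts to be tested. The cells were thioglycolate-elicited macrophages, which are recruited to the peritoneum by an irritant broth, isolated on day 4 and stimulated the next day for 8 h. Of the 4 groups of 3 libraries, control vehicle came from mice with LysM-Cre alone and received BSA-PBS. Control palmitate plus LPS came from the same genotype and received LPS, a bacterial cell wall lipid that signals through TLR4, at 100 ng/ml and the saturated fatty acid palmitate at 250 uM. The groups labelled knockout came from mice labelled LysM-PPARg or PPARg KO, and received the same vehicle or the same palmitate plus LPS. LysM-Cre, a Cre recombinase driven from a myeloid lysozyme gene, is thus shared by all 12 libraries, and it acts in neutrophils as well as in macrophages. Palmitate and LPS were given together, so their separate parts cannot be told apart. The labels do not say that libraries of a group came from separate mice, so p-values measure the spread between these libraries. The strain and age of the mice were not stated in those labels.

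When unfolded proteins collect in the ER, 3 membrane sensors respond. PERK, encoded by Eif2ak3, phosphorylates the translation factor eIF2, which slows most protein synthesis and favours translation of ATF4. ATF4 then drives genes of amino acid supply, serine and one-carbon metabolism, and CHOP (Ddit3). Other eIF2 kinases feed the same step, and this shared part is the integrated stress response. IRE1, encoded by Ern1, splices the Xbp1 messenger, and ATF6 is cut in the Golgi to release a transcription factor. XBP1 and ATF6 drive chaperones, folding enzymes and ER-associated degradation (ERAD), with overlapping targets. Gene-level counts do not measure eIF2 phosphorylation, ATF4 protein, Xbp1 splicing or ATF6 cleavage.

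The members were therefore read in 3 sets. The sensors and factors were Atf4, Xbp1, Ern1, Eif2ak3 and Atf6. The ATF4-CHOP arm held 15 genes, of which 8 were regulators and feedback genes and 7 were amino acid and one-carbon genes. The ER arm held 15 genes, of which 4 are assigned mainly to XBP1 and 11 mainly to ATF6, an assignment taken from general knowledge of the pathway.

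To show which DNA elements the sets carry near their starts, RefSeq windows of GRCm38.p6 from 250 bases before to 50 bases after the annotated start were searched on both strands. Windows were found for 31 of the 35 members, and Atf6, Slc7a5, Manf and Hyou1 had none. The ER stress response element ERSE, which reads CCAAT, 9 bases of any kind and CCACG, is bound by ATF6 and XBP1 together with the CCAAT factor NF-Y. It was found in 7 of 13 ER-arm genes with a window (53.8%), in 0 of 14 genes of the ATF4-CHOP arm, and in 39 of 32851 windows of all genes (0.119%). The sites are printed 5′ to 3′ on the strand that reads CCAAT first, with the fixed letters of the element in capitals.
Hspa5 (chr2:34772020-34772048, plus): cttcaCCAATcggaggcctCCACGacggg
Hsp90b1, farther (chr10:86705633-86705661, minus): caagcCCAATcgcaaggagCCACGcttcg
Hsp90b1, nearer (chr10:86705528-86705556, plus): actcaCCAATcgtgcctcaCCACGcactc
Creld2 (chr15:88819515-88819543, minus): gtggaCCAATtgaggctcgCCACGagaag
Pdia6 (chr12:17266486-17266514, plus): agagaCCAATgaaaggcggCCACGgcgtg
Canx (chr11:50325795-50325823, minus): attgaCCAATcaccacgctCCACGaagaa
Dnajc3 (chr14:118937822-118937850, plus): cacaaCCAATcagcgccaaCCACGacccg
Calr (chr8:84847070-84847098, plus): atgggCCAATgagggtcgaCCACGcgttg

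The core of the C/EBP-ATF element, TGATGNAA, at which ATF4 pairs with a C/EBP protein, was found in 4 of 14 genes of the ATF4-CHOP arm with a window (28.6%), in 1 of 13 ER-arm genes, Herpud1 (7.69%), and in 3.97% of all windows. These sites are printed on the strand that reads TGATG, with the fixed letters in capitals.
Asns (chr6:7693215-7693242, minus): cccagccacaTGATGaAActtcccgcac
Chac1 (chr2:119351039-119351066, minus): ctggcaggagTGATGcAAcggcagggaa
Atf3 (chr1:191183426-191183453, plus): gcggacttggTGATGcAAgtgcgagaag
Trib3 (chr2:152344029-152344056, plus): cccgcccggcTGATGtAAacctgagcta
Herpud1 (chr8:94386307-94386334, minus): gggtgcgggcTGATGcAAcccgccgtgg

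Herpud1, a membrane protein of the ERAD complex, was the only member with a match from both families. It also held ERSE-II, which reads ATTGG, any base and CCACG and was found in 12 of all windows (0.0365%). The 250 bases before its start are printed on the plus strand because they hold both elements, in capitals, with the C/EBP-ATF core read here as its reverse complement.
Herpud1 (chr8:94386179-94386428, plus): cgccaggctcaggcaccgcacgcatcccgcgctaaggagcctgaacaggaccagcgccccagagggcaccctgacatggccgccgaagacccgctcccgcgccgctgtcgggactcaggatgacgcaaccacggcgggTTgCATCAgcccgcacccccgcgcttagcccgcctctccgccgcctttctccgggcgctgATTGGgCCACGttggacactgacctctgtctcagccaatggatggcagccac
The cyclic AMP response element, TGACGTCA, was found in Ppp1r15a alone among the members and in 1.79% of all windows. The XBP1-binding core TGACGTGG was found in 0 of 31 members and in 0.676% of all windows. No 2 matches overlapped in these windows. Binding was not measured, and a match is a description of letters.

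The libraries held 17960457 to 22696385 counts. Pparg, the targeted gene, went against its label in vehicle. Its TMM-scaled CPM (counts scaled to library size by the trimmed-mean method used in the tests) was 62.3, 61.6 and 61.0 in control vehicle and 111, 91.0 and 95.9 in the libraries labelled knockout, a log2 difference of 0.69 ± 0.11 (standard error; edgeR adjusted p = 0.00124). No exon-level count was used, so a deletion that leaves the messenger in place would not be seen. The libraries are therefore called labelled knockout throughout, and no direction below is drawn from a loss of Pparg. Vehicle replicate 1 labelled knockout stood at 31.8 on the second principal component, against -6.92 and -10 for the others of its group. Results of several members are given with and without it. The summed level of 8 macrophage markers was 6110 to 8840 CPM over the 12 libraries, most of it Cd68 (group means 4170 to 5870 CPM). Single markers moved both ways with treatment in controls, from Cd14 (2.95) and Lyz2 (2.42) to Csf1r (-0.78) and Itgam (-0.97). Plasma cells, which have a large ER, were marked by 10 genes. Of these, Sdc1 made up nearly the whole summed level and fell with stimulation (mean 357 to 119 CPM in controls), while Jchain, Mzb1 and Pou2af1 were below 1 CPM in each group mean and Pax5 was at 0 counts in all vehicle libraries. In bulk RNA, fewer cells of a type and less RNA per cell cannot be told apart.

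Palmitate plus LPS raised most of the 35 genes in both genotypes. In the controls 26 of 35 rose and 3 fell, while 32.0% of all tested genes rose and 34.7% fell, 66.7% in all (edgeR quasi-likelihood test, Benjamini-Hochberg adjusted p under 0.05 over 12914 genes). In the libraries labelled knockout 25 rose and 4 fell, against 33.7% and 35.6% of all genes, 69.4% in all. With libraries scaled by total counts, which lowered the median of all genes to -0.38 and -0.42, the members' counts were 24 higher and 5 lower in controls and 22 and 5 in the labelled knockout. The median log2 change of the members was 1.08 in controls and 1.22 in the labelled knockout, against -0.05 and -0.06 over all tested genes. Together the 35 genes took 0.518% ± 0.0118 of the counts in control vehicle and 1.00% ± 0.124 after palmitate plus LPS (SD, n = 3). In the labelled knockout the share went from 0.507% ± 0.0344 to 0.968% ± 0.109 (SD, n = 3). The stimulated libraries of both genotypes lay above all vehicle libraries in this share.

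The 2 arms differed in how uniformly they rose. All 15 genes of the ATF4-CHOP arm rose in controls, with a median log2 change of 2.22 and a range from 0.78 for Atf5 to 3.87 for Chac1. In the ER arm 10 of 15 rose, Edem1 and Sdf2l1 fell, and Dnajc3, Calr and Sel1l did not pass the threshold, with a median of 0.64 and a range from -0.34 to 1.86. The labelled knockout gave 14 of 15 higher and a median of 2.20 for the ATF4-CHOP arm, and 10 higher, 3 lower and a median of 0.60 for the ER arm. Within the ER arm the genes assigned to XBP1 had a median of 0.59 in controls and those assigned to ATF6 a median of 0.64. The same 2 medians were 0.56 and 0.60 in the labelled knockout. No test compares the arms as sets, and the 15 genes of an arm are not replicates of a condition.

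**Figure D1:**
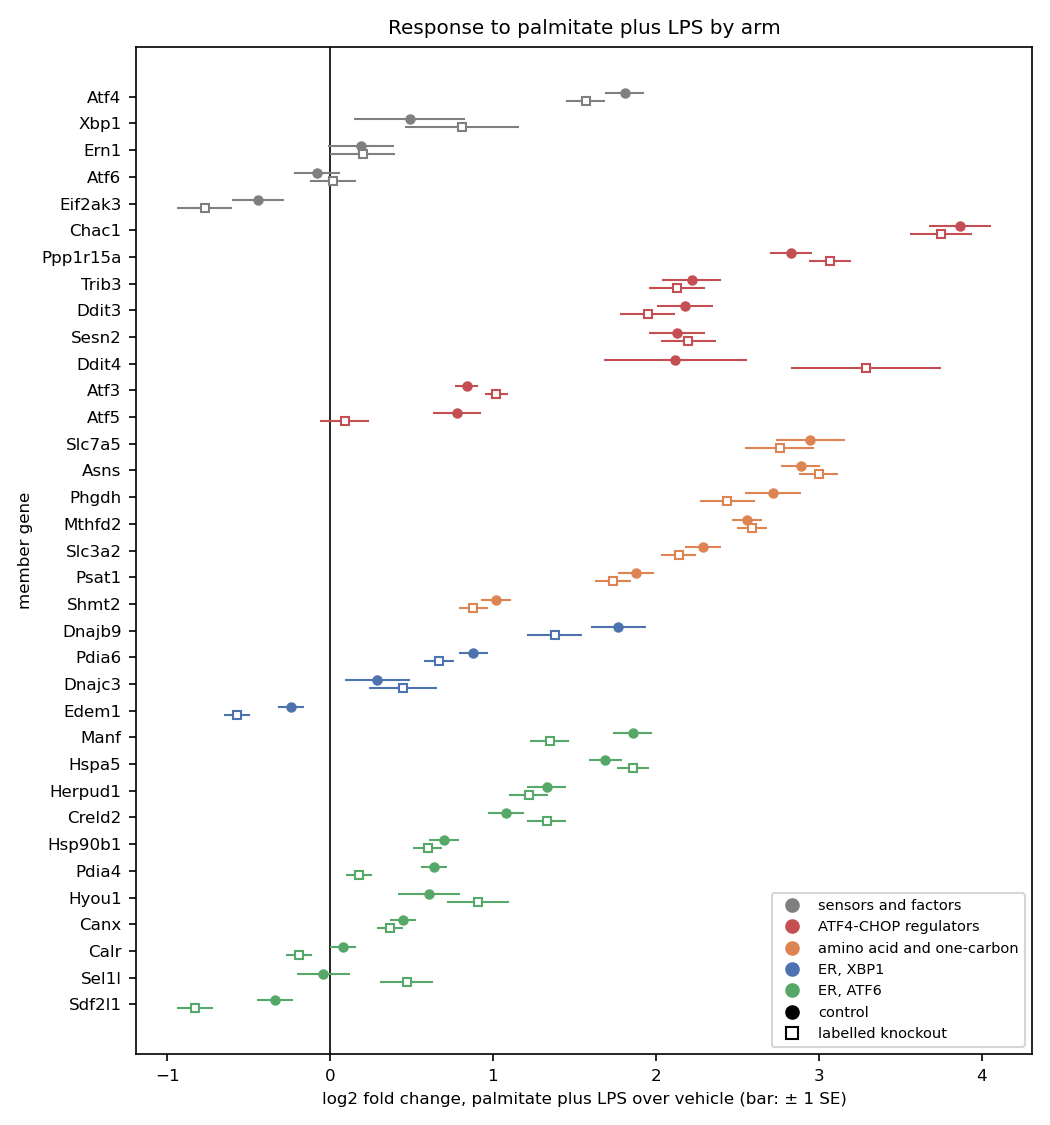
The log2 fold change of each member for palmitate plus LPS over vehicle, in controls (filled circles) and in the labelled knockout (open squares), with bars of 1 standard error, coloured by set. The ATF4-CHOP genes lie to the right of 0, from 0.78 to 3.87 in controls, while the ER arm spreads from -0.34 to 1.86.

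Among the sensors and factors, Atf4 alone passed as higher in the fit over all libraries. Atf4 (ENSMUSG00000042406, GRCm38 chr15:80255184-80257540, plus) had 120, 129 and 133 CPM in control vehicle and 459, 421 and 459 after stimulation, a log2 change of 1.81 ± 0.12 (adjusted p = 1.29e-09). The labelled knockout went from 168, 131 and 126 CPM to 365, 483 and 413, a log2 change of 1.57 ± 0.12 (adjusted p = 6.2e-09). The stimulated libraries were all above the vehicle libraries in both genotypes.

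The PERK gene Eif2ak3 went the other way. It had 4.52, 4.40 and 4.39 CPM in control vehicle and 3.79, 2.54 and 3.47 after stimulation, a log2 change of -0.44 ± 0.16 (adjusted p = 0.0247). In the labelled knockout it fell from 5.03, 4.26 and 5.44 CPM to 2.94, 3.09 and 2.58, a log2 change of -0.77 ± 0.17 (adjusted p = 0.000613). Neither genotype's stimulated libraries overlapped its vehicle libraries. The call in controls was lost with DESeq2 and without control vehicle replicate 1, control vehicle replicate 2 or stimulated control replicate 2, with a highest adjusted p of 0.134.

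The other 3 genes of this set did not pass the threshold in either genotype. Ern1, the IRE1 gene, had log2 changes of 0.19 ± 0.20 and 0.20 ± 0.20, and Atf6 had -0.08 ± 0.14 and 0.02 ± 0.14. Xbp1 had 84.9, 79.6 and 79.0 CPM in control vehicle and 144, 85.0 and 113 after stimulation, a log2 change of 0.49 ± 0.34 (adjusted p = 0.229). The control groups did not overlap, though their nearest libraries were 84.9 and 85.0 CPM. In the labelled knockout Xbp1 was 24.0 CPM in vehicle replicate 1 and 72.3 and 80.6 in the others, against 91.5, 114 and 106 after stimulation (log2 0.81 ± 0.35, adjusted p = 0.0569). Without vehicle replicate 1 labelled knockout, Xbp1 passed in controls at the same 0.49 (standard error 0.18, adjusted p = 0.0397) and stood at 0.44 ± 0.20 in the labelled knockout (adjusted p = 0.0883). Xbp1 also passed without a filter in both genotypes (0.46 and 0.78, adjusted p = 1.59e-05 and 7.39e-14). Its standard error in controls was 0.10 there, against 0.34 with the filter, from the same libraries. The cause of the smaller error was not tested. In the labelled knockout Xbp1 passed with 1 CPM in 3 libraries (0.80, adjusted p = 0.046) and without vehicle replicate 3 labelled knockout (1.10, adjusted p = 0.032).

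Among the regulators of the ATF4-CHOP arm, Chac1 had the highest change of all 35 members in both genotypes. Chac1, an enzyme that breaks down glutathione (ENSMUSG00000027313, chr2:119351229-119354381, plus), had 3.21, 3.52 and 2.98 CPM in control vehicle and 52.5, 42.4 and 48.1 after stimulation. This was a log2 change of 3.87 ± 0.19, or 14.6-fold (adjusted p = 3.38e-11). The labelled knockout went from 4.19, 4.14 and 3.26 CPM to 39.6, 68.0 and 47.7, or 13.4-fold (adjusted p = 3.76e-11). No stimulated library came near a vehicle library, and the spread among stimulated libraries was wider in the labelled knockout.

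Ddit3, the CHOP gene (ENSMUSG00000025408, chr10:127290774-127296288, plus), encodes a transcription factor linked to death under lasting ER stress. Its level was 48.0, 49.6 and 56.3 CPM in control vehicle and 255, 206 and 237 after stimulation (log2 2.18 ± 0.17, adjusted p = 1.74e-08). The labelled knockout had 73.2, 51.3 and 55.1 CPM and then 172, 298 and 223 (log2 1.95 ± 0.17, adjusted p = 5.42e-08). Ddit3 rose in both genotypes without overlap, and its exons overlap Mars on the other strand, which itself changed by 0.60 and 0.41.

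Ppp1r15a encodes GADD34, which guides a phosphatase to eIF2 and so reverses the block of translation. It went from 83.6, 88.1 and 92.8 CPM to 738, 537 and 609 in controls (7.13-fold, adjusted p = 1.57e-11) and from 77.2, 77.9 and 81.4 to 552, 781 and 657 in the labelled knockout (8.41-fold, adjusted p = 5.72e-12). Trib3, a pseudokinase induced by CHOP that dampens the pathway, rose by 2.22 ± 0.18 and 2.13 ± 0.17 on the log2 scale. Sesn2, an inhibitor of mTORC1 signalling, rose by 2.13 ± 0.17 and 2.20 ± 0.17. All 3 rose in both genotypes, and their response differences between genotypes were 0.24 ± 0.17 for Ppp1r15a, -0.09 ± 0.24 for Trib3 and 0.07 ± 0.23 for Sesn2, none of these past the threshold.

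Atf5 and Atf3 had the smallest changes of the arm in controls. Atf3, a stress-induced repressor, was the most abundant member per length at rest and rose from 632, 629 and 645 CPM to 1180, 1120 and 1110 in controls (log2 0.84 ± 0.07) and by 1.02 ± 0.07 in the labelled knockout. Ddit4, another mTORC1 inhibitor, was near the limit of detection in vehicle, with 18 counts in the 3 control libraries and 11 in the 3 labelled knockout libraries. Its counts after stimulation were 62 and 88, ratios per effective library size of 4.41 (95% exact interval 2.57 to 7.91, counting error only) and 10.1 (5.35 to 20.9). The 2 intervals overlap, and the interaction was 1.17 ± 0.72 (adjusted p = 0.307).

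All 7 genes of amino acid supply and one-carbon metabolism rose in both genotypes. Asns, which makes asparagine (ENSMUSG00000029752, chr6:7675169-7693254, minus), went from 47.4, 51.7 and 48.8 CPM to 404, 318 and 375 in controls (log2 2.89 ± 0.12, adjusted p = 2.8e-12). It went from 53.4, 47.3 and 49.9 CPM to 364, 471 and 369 in the labelled knockout (log2 3.0 ± 0.12, adjusted p = 1.64e-12). Even the lowest stimulated library was far above the highest vehicle library.

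Of the enzymes of serine synthesis, Phgdh, which catalyses the entry step, rose by 2.72 ± 0.17 in controls and 2.44 ± 0.17 in the labelled knockout. Psat1, the next enzyme, rose by 1.88 ± 0.11 and 1.74 ± 0.11. The mitochondrial one-carbon enzymes followed at different sizes. Mthfd2 went from 76.0, 78.3 and 76.4 CPM to 461, 437 and 465 in controls (5.91-fold, adjusted p = 6.12e-13), while Shmt2 went from 30.1, 33.9 and 33.3 to 72.7, 59.5 and 65.6 (2.03-fold, adjusted p = 1.02e-07). The labelled knockout gave 6.02-fold for Mthfd2 and 1.84-fold for Shmt2. Phgdh shares 98.7% identity over 1597 bases with the pseudogene Gm7901, which had 0 counts in all libraries. It shares 97.2% over 393 bases with Gm6756, which had 9 counts over the 12 libraries against 5902 for Phgdh. Gm9347, at 97.4% over 1608 bases, was not found by symbol among the counted genes. How reads shared with these copies were counted was not tested.

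Slc7a5 and Slc3a2 form the 2 chains of a transporter of large neutral amino acids. Slc7a5, the transport chain, had 1.20, 1.34 and 1.72 CPM in control vehicle and 11.3, 9.77 and 11.5 after stimulation (log2 2.95 ± 0.21). Slc3a2, the heavy chain, had 242, 233 and 247 CPM and then 1320, 1070 and 1140 (log2 2.29 ± 0.11). The changes in the labelled knockout were 2.76 ± 0.21 and 2.14 ± 0.11. Per kilobase of exon, Slc3a2 was 398 RPKM and Slc7a5 was 2.92 RPKM in stimulated controls, so the 2 chains were far apart in level while both rose.

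**Figure D2:**
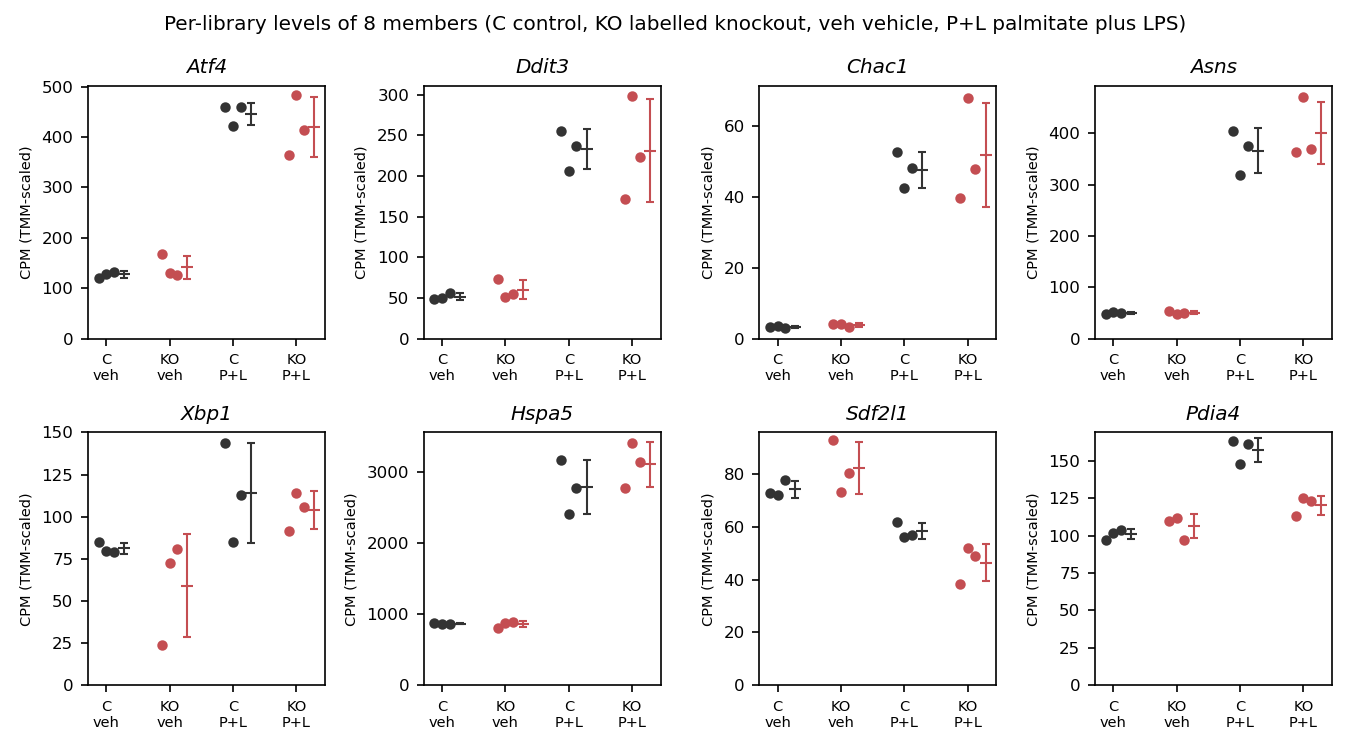
TMM-scaled CPM of 8 members in each library (points), with the mean and SD of the 3 libraries of each group beside them. Atf4, Ddit3, Chac1, Asns and Hspa5 are higher in every stimulated library, Sdf2l1 is lower, Xbp1 has 1 vehicle library at 24.0, and stimulated Pdia4 lies at 148 to 163 in controls and 113 to 125 in the labelled knockout.

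In the ER arm, the chaperone BiP led in abundance. Hspa5, the BiP gene (ENSMUSG00000026864, chr2:34771970-34776531, plus), binds unfolded chains and holds the sensors inactive. It had 873, 859 and 860 CPM in control vehicle and 3170, 2410 and 2770 after stimulation (log2 1.69 ± 0.10, adjusted p = 4.79e-10). It had 805, 877 and 883 CPM in vehicle labelled knockout and 2780, 3410 and 3140 after stimulation (log2 1.86 ± 0.10, adjusted p = 1.32e-10). Vehicle libraries agreed closely, and every stimulated library was higher. Hspa5 alone held 0.255% ± 0.0416 of all counts in stimulated controls (SD, n = 3).

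Manf, a secreted ER protein, and Dnajb9, a BiP cochaperone, had estimates near that of Hspa5 in controls. Manf went from 51.6, 49.2 and 52.2 CPM to 199, 170 and 185 (log2 1.86 ± 0.12), and in the labelled knockout changed by 1.35 ± 0.12. Dnajb9 went from 14.0, 13.5 and 13.3 CPM to 55.5, 36.2 and 48.0 (log2 1.77 ± 0.17), and changed by 1.38 ± 0.17 in the labelled knockout. Herpud1, whose window is printed above, rose by 1.33 ± 0.12 and 1.22 ± 0.12, and Creld2, another ER stress gene, by 1.08 ± 0.11 and 1.33 ± 0.12. For Manf, genes of both strands overlap it, with Dcaf1 among them, which rose by 1.96 and 2.49.

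The folding enzymes and large chaperones changed less. Pdia6, a disulfide isomerase, rose by 0.88 ± 0.09 and 0.67 ± 0.09, and Hsp90b1, the ER form of HSP90, by 0.70 ± 0.09 and 0.60 ± 0.09. Hyou1, a partner of BiP, rose by 0.61 ± 0.19 (adjusted p = 0.0116) and 0.91 ± 0.19 (adjusted p = 0.000636), and without vehicle replicate 1 labelled knockout by 0.61 ± 0.11 and 0.67 ± 0.12. Without stimulated control replicate 1 the Hyou1 call in controls was lost (0.46, adjusted p = 0.0663), and under total-count scaling it was lost in both genotypes (0.28, adjusted p = 0.304, and 0.53, adjusted p = 0.0586).

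Canx and Calr, the lectin chaperones of glycoproteins, gave different calls. Canx rose by 0.45 ± 0.08 and 0.37 ± 0.08. Calr had 376, 390 and 418 CPM in control vehicle and 433, 390 and 431 after stimulation, which overlapped (log2 0.08 ± 0.08). Calr in the labelled knockout was 454, 389 and 401 CPM and then 352, 375 and 361, a log2 change of -0.19 ± 0.08 (adjusted p = 0.0436) that was lost in 12 of 19 alternatives. Canx did not pass under total-count scaling (0.12 and 0.01), under which Calr was lower in controls too (-0.25, adjusted p = 0.00413).

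The ERAD genes did not move together. Edem1, which picks misfolded glycoproteins for degradation, fell from 45.8, 43.9 and 41.8 CPM to 37.7, 35.8 and 38.0 in controls (log2 -0.24 ± 0.08, adjusted p = 0.0131). In the labelled knockout it fell from 54.1, 53.4 and 52.7 CPM to 35.7, 38.3 and 33.9 (log2 -0.57 ± 0.08, adjusted p = 7.7e-06). The groups did not overlap in either genotype, and the control call was lost without control vehicle replicate 1 or stimulated control replicate 2 (highest adjusted p 0.0599). Sel1l, the partner of the ERAD ligase, changed by -0.04 ± 0.16 in controls. Its change in the labelled knockout was 0.47 ± 0.16 (adjusted p = 0.0146), with 77.9 CPM in vehicle replicate 1 against 139 and 133 in the others, and 0.25 ± 0.08 (adjusted p = 0.00469) without that library. Under total-count scaling the Sel1l change was 0.09 (adjusted p = 0.704).

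Sdf2l1, a component of ER chaperone complexes and commonly induced by ER stress, fell. Sdf2l1 (ENSMUSG00000022769, chr16:17130138-17132383, minus) had 72.9, 72 and 77.8 CPM in control vehicle and 62.0, 56.3 and 57.1 after stimulation (log2 -0.34 ± 0.11, adjusted p = 0.0117). The labelled knockout had 93.1, 73.4 and 80.6 CPM and then 38.4, 51.9 and 48.8 (log2 -0.83 ± 0.11, adjusted p = 6.65e-06). All stimulated libraries were below all vehicle libraries. Dnajc3, an inhibitor of PERK and a BiP cochaperone, did not pass in either genotype (0.29 ± 0.20 and 0.45 ± 0.21). Without vehicle replicate 1 labelled knockout, which had 23.1 CPM of Dnajc3 against 43.4 and 50, the values were 0.29 ± 0.11 (adjusted p = 0.0327) and 0.19 ± 0.13 (adjusted p = 0.207). Dnajc3 also passed without a filter in both genotypes (0.26 and 0.42, adjusted p = 0.0375 and 0.000345). Its standard error in controls was 0.11 there, against 0.20 with the filter. Dnajc3 passed too with 2 groups alone in controls (adjusted p = 0.0104), and without vehicle replicate 3 labelled knockout in the labelled knockout (0.67, adjusted p = 0.011).

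Of the 7 ER-arm genes with an ERSE, 5 rose and 0 fell in controls, and of the 6 with a window and no match, 3 rose and 2, Edem1 and Sdf2l1, fell. The labelled knockout gave 5 higher and Calr lower among those with the element, and 3 higher and 2 lower among those without. Of all tested genes, 32.0% were higher and 34.7% lower in controls, and 33.7% and 35.6% in the labelled knockout. The genes with the element ranged from Calr at 0.08 to Hspa5 at 1.69 in controls, and no test compares these few genes. Dnajb9, with no match in its window, changed by 1.77, and Sdf2l1, also with none, by -0.34. In the ATF4-CHOP arm the 4 genes with the C/EBP-ATF core ranged from Atf3 at 0.84 to Chac1 at 3.87, and Phgdh, with none, changed by 2.72. Some RefSeq starts, such as those of Hspa5, Psat1 and Slc3a2, lie inside the gene as the count tables place it. The bases before the Psat1 starts are chr19:15924623-15924872 and 15925060-15925309, while the count tables start this minus-strand gene at 15947337. For Slc3a2 they are chr19:8713898-8714147, against a start at 8723369. Neither gene had a match, and these windows are not the only possible ones.

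**Figure D3:**
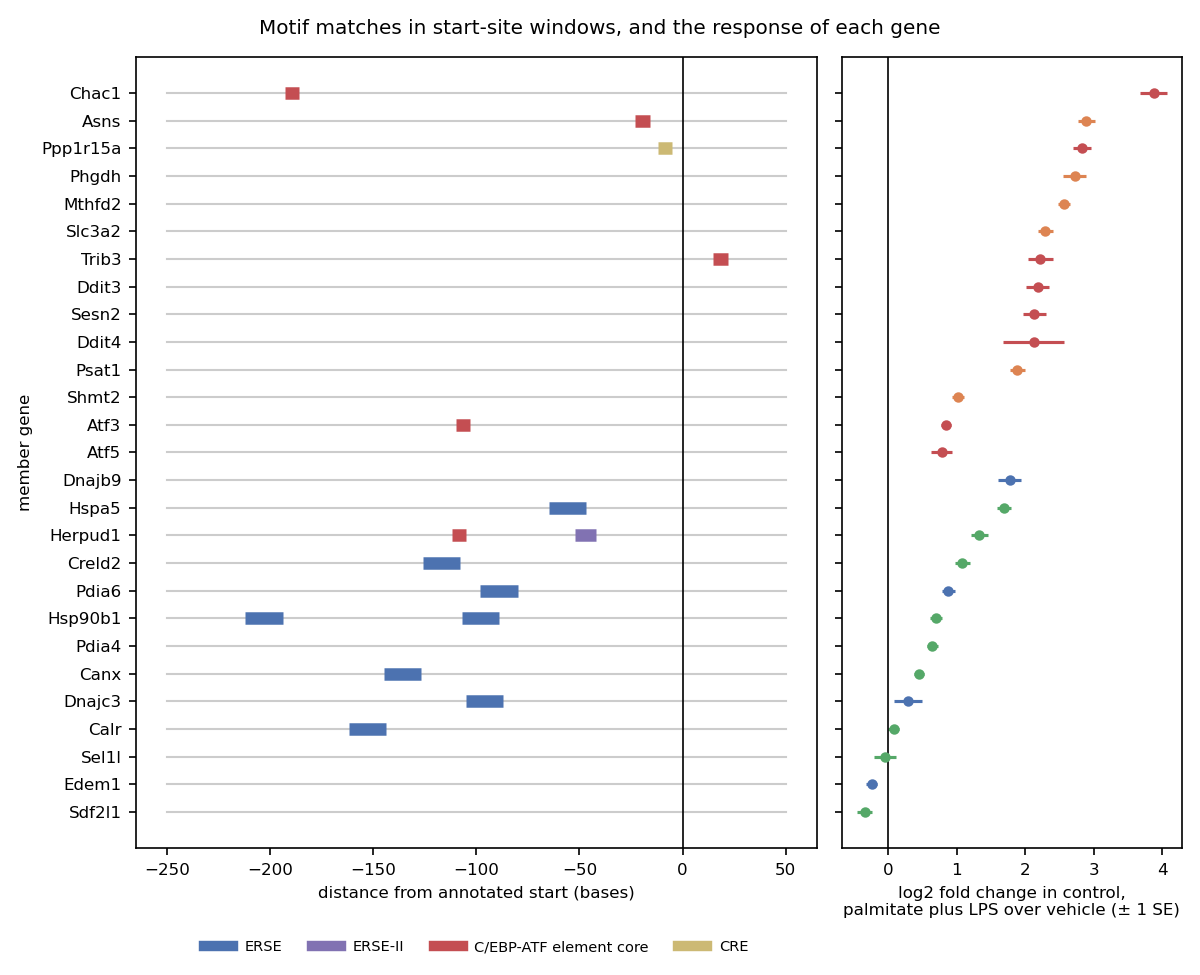
Left, positions of motif matches in the windows of 27 genes of both arms, by distance from the RefSeq start in bases; right, the log2 change of each gene in controls with 1 standard error. ERSE matches lie in the ER arm, C/EBP-ATF cores mainly in the ATF4-CHOP arm, and genes with and without a match are spread along the response axis.

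Ranked by level per length, the members kept a wide range. In control vehicle, Atf3 had 320 ± 4.10 RPKM and Hspa5 246 ± 2.28 (SD, n = 3), ahead of Calr at 137 ± 7.49 and Canx at 108 ± 1.98. At the other end were Eif2ak3 at 0.818 ± 0.0129, Slc7a5 at 0.382 ± 0.0727 and Ddit4 at 0.139 ± 0.111. After stimulation Hspa5 led with 793 ± 109 RPKM, above Atf3 with 573 ± 19.6 and Slc3a2 with 398 ± 42.6. The ranges of Hspa5 and Atf3 after stimulation did not overlap within 1 SD.

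In vehicle no member passed the test between genotypes. Of the 35, 0 rose and 0 fell in the labelled knockout, while 2.11% of all tested genes were higher and 1.69% lower, 3.8% in all (edgeR, adjusted p under 0.05). At an unadjusted p under 0.05, Edem1 was higher and Atf3 lower, and DESeq2 called 1 member, Edem1. The shares above are for adjusted edgeR calls, and none is given for these other cutoffs. The median log2 difference was 0.05, with a range from -0.60 for Ddit4 to 0.28 for Edem1. Edem1 came nearest to the threshold, with 45.8, 43.9 and 41.8 CPM in controls and 54.1, 53.4 and 52.7 in the other genotype (log2 0.28 ± 0.08, adjusted p = 0.0521). It passed with RLE scaling, with a filter of 1 CPM in 3 libraries, with DESeq2 and without vehicle replicate 1 labelled knockout (adjusted p = 0.0165). Atf3 also did not overlap between genotypes, at 632, 629 and 645 CPM against 524, 534 and 586 (log2 -0.21 ± 0.07, adjusted p = 0.143). Nor did Trib3 and Mthfd2, which lay above controls, or Ppp1r15a and Creld2, which lay below, and none of these passed. The share of all genes without overlap is not given here.

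Vehicle replicate 1 labelled knockout set the spread of several members. Its Xbp1, Dnajc3, Hyou1 and Sel1l levels were the lowest of the 12 libraries, as the values above show for Xbp1, Dnajc3 and Sel1l, and Hyou1 was 17.0 CPM against 33.5 and 32.2 in the others of its group. Against the mean of these others, 7 of 35 members differed by more than 0.5 on the log2 scale (20%), 1 above and 6 below. Over all tested genes the share was 20.9%. Across the 35 genes this difference had a Spearman correlation of -0.44 with exon length, and -0.46 across all tested genes, as a description over genes of 1 library. The part of length in these values was not tested.

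**Figure D4:**
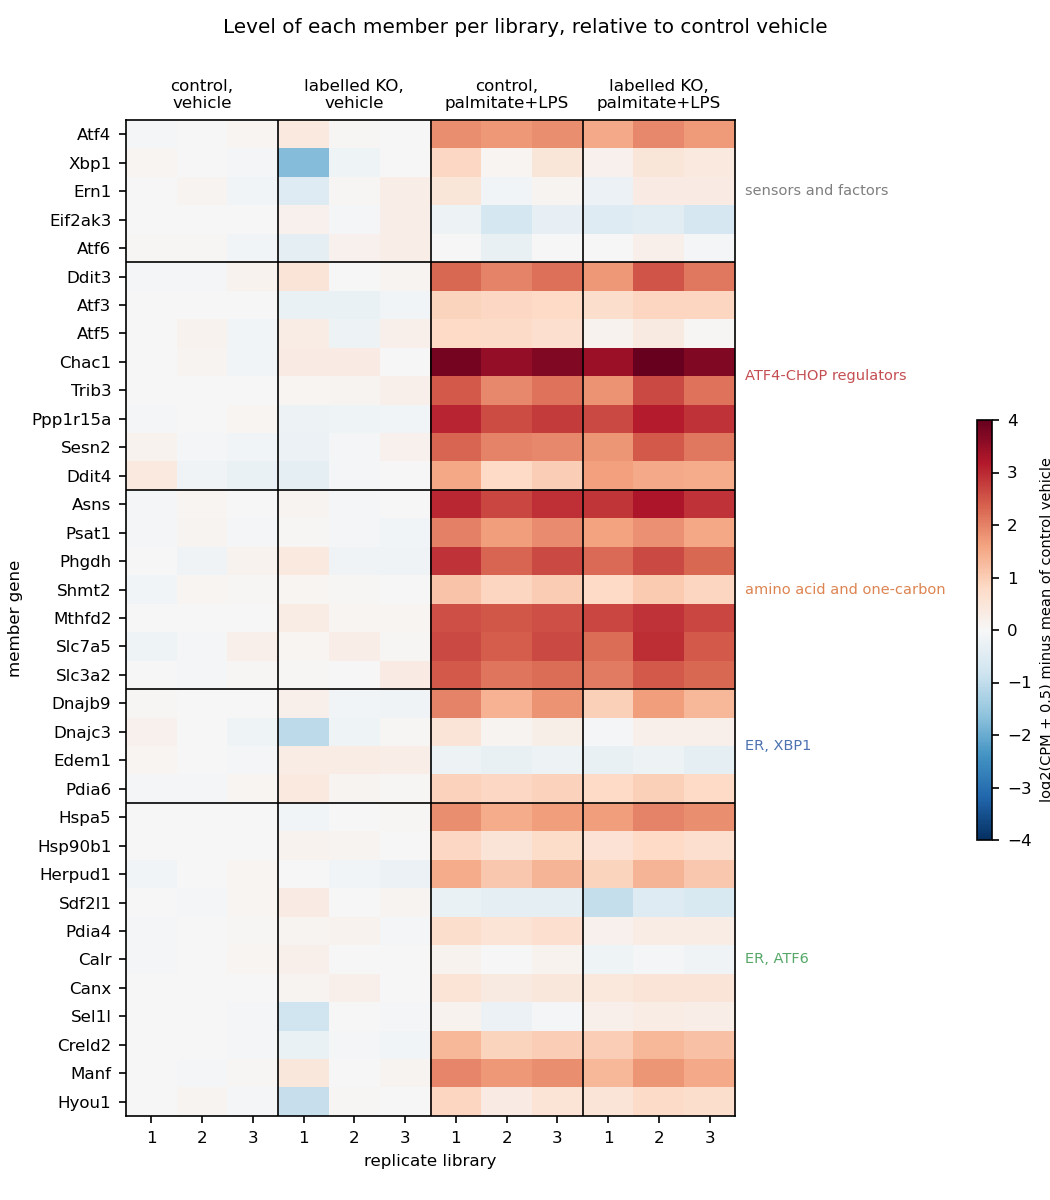
Each member's log2(CPM + 0.5) in each of the 12 libraries minus its mean in control vehicle, grouped by set. The ATF4-CHOP block is raised in all 6 stimulated libraries, the ER block is mixed, and vehicle replicate 1 labelled knockout is low for Xbp1, Dnajc3, Sel1l and Hyou1.

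After palmitate plus LPS, 0 of 35 members were higher in the labelled knockout and 2 were lower, against 10% and 6.1% of all tested genes, 16.1% in all (edgeR). At an unadjusted p under 0.05, 1 was higher and 6 lower, and DESeq2 called 0 higher and 3 lower. The shares above are for adjusted edgeR calls. No share of all genes is given for these other cutoffs, so these counts cannot be set against one. The 2 called genes are Pdia4 and Atf5. Pdia4, an ER disulfide isomerase (ENSMUSG00000025823, chr6:47796142-47813512, minus), had 163, 148 and 161 CPM in stimulated controls and 113, 125 and 123 in the labelled knockout (log2 -0.39 ± 0.08, adjusted p = 0.00368). In vehicle the levels were 97, 102 and 104 CPM in controls and 110, 112 and 97.1 in the labelled knockout (log2 0.08 ± 0.08), which overlapped. Pdia4 rose in controls (0.64 ± 0.08, adjusted p = 3.36e-06), and its change in the labelled knockout was 0.18 ± 0.08 (adjusted p = 0.0619). For the interaction, 4.7% of all genes passed in the positive and 3.35% in the negative direction, 8.05% in all. The difference between the Pdia4 responses was -0.47 ± 0.11 (adjusted p = 0.0222), the only one of 35 to pass in the fit over all libraries. Over 18 alternatives its adjusted p ranged from 0.00107 to 0.0731, and the call was lost in 6: with the replicate number as a block and without control vehicle replicate 1, control vehicle replicate 2, stimulated control replicate 3, or stimulated labelled knockout replicate 1 or 3. The Pdia4 response in the labelled knockout turned to -0.19 under total-count scaling (adjusted p = 0.0421). It passed as higher in 6 of 19 alternatives, among them the fit without vehicle replicate 1 labelled knockout. Without that library the Pdia4 interaction was -0.45 (adjusted p = 0.00152). Sdf2l1 (-0.39, adjusted p = 0.0295), Edem1 (-0.33, adjusted p = 0.0295) and Atf5 (-0.59, adjusted p = 0.0459) passed there too.

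Atf5, a relative of ATF4 that drives mitochondrial and ER stress genes (ENSMUSG00000038539, chr7:44812257-44816658, minus), was the other. It had 9.84, 9.66 and 9.02 CPM in stimulated controls and 6.12, 7.16 and 5.73 in the labelled knockout (log2 -0.59 ± 0.15, adjusted p = 0.0132). Vehicle levels were 5.42, 6.12 and 5.0 CPM in controls and 6.81, 4.70 and 6.43 in the labelled knockout. It rose in controls (0.78 ± 0.15, adjusted p = 0.000196) and changed by 0.09 ± 0.15 in the labelled knockout. The difference between the responses was -0.69 ± 0.21 and did not pass (adjusted p = 0.0541, range 0.016 to 0.129). The genotype call was lost without stimulated labelled knockout replicate 1 (adjusted p = 0.0527) or replicate 3 (adjusted p = 0.0667). Atf5 overlaps Il4i1 and ENSMUSG00000043858 on the other strand, and without a stated strand setting their reads cannot be told apart. Neither of these differed between genotypes after stimulation, with -0.01 ± 0.13 for Il4i1 and 0.06 ± 0.08 for ENSMUSG00000043858. Both rose with treatment, Il4i1 by 3.82 and 4.21 and ENSMUSG00000043858 by 1.35 and 1.33, and together they held 40956 counts over the 12 libraries against 1693 for Atf5. The part of their reads in the Atf5 values was not tested.

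Of the other ER-arm genes, 4 had negative differences at an unadjusted p under 0.05 that did not pass after adjustment. The share of all genes at that unadjusted cutoff is not given here. Sdf2l1 was -0.33 ± 0.11 (adjusted p = 0.0542), Manf -0.30 ± 0.12 (adjusted p = 0.0931), Calr -0.20 ± 0.08 (adjusted p = 0.0969) and Dnajb9 -0.41 ± 0.16 (adjusted p = 0.107). Sdf2l1 and Calr did not overlap between the genotypes. Sel1l (0.29 ± 0.16) and Mthfd2 (0.19 ± 0.09) did not overlap either, were higher in the labelled knockout and did not pass. The share of all genes without overlap is not given here. Atf4 (-0.09 ± 0.11), Ddit3 (-0.01 ± 0.16), Asns (0.13 ± 0.11) and Hspa5 (0.16 ± 0.10) overlapped between genotypes. Without vehicle replicate 1 labelled knockout, 5 members were lower and 2, Mthfd2 and Sel1l, higher. The 5 were Pdia4, Atf5, Sdf2l1 (-0.33, adjusted p = 0.00261), Manf (-0.30, adjusted p = 0.00579) and Calr (-0.21, adjusted p = 0.00763). Dnajb9 did not pass in that fit (adjusted p = 0.166), and the share of all genes called there is not given here. The summed level of 9 fibroblast and mesothelial markers, 0 of them at 0 counts, was 124 to 143 CPM in stimulated controls and 183 to 333 in the stimulated labelled knockout. That of 8 neutrophil markers was 107 to 116 and 144 to 174 CPM, with Ly6g, S100a9 and Ngp at 0 in both of these groups. Its members did not move one way: Csf3r (mean 90.6 to 136 CPM) and Mmp8 (4.75 to 10.8) were higher in the stimulated labelled knockout, and S100a8 was lower (15 to 6.93 CPM, log2 -1.11 ± 0.17, adjusted p = 0.000367). In vehicle both sums were also higher in the labelled knockout. The fibroblast and mesothelial sum was 150 to 194 against 116 to 136 CPM in controls, and the neutrophil sum 110 to 113 against 76.8 to 80.5 CPM. The part of these markers in the genotype differences was not tested.

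**Figure D5:**
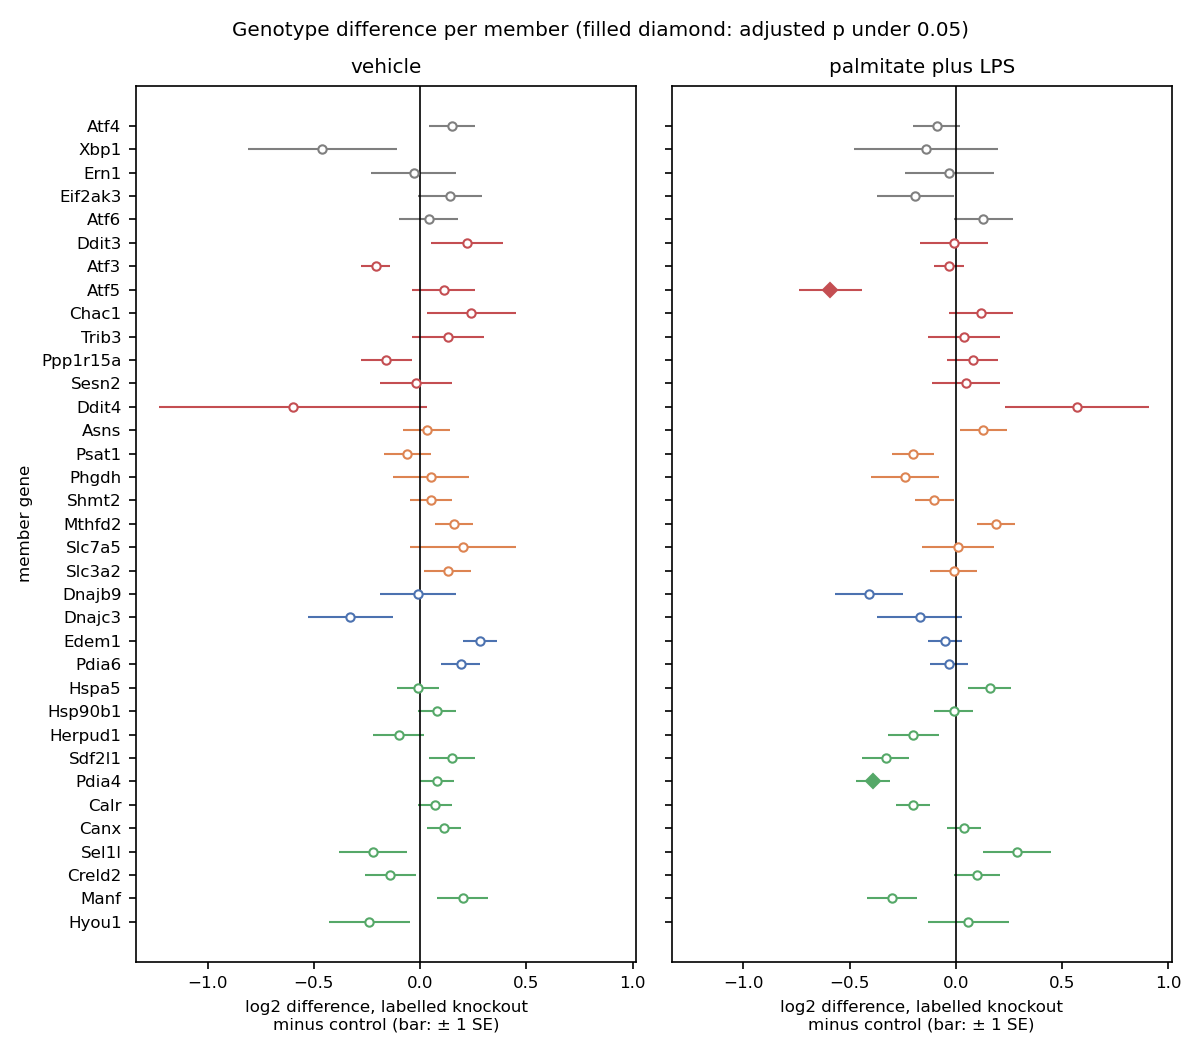
Log2 difference of each member, labelled knockout minus control, in vehicle (left) and after palmitate plus LPS (right), with bars of 1 standard error. Filled diamonds mark an adjusted p under 0.05: none in vehicle, and Atf5 at -0.59 and Pdia4 at -0.39 after stimulation.

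The members varied together among stimulated libraries of the same group. Stimulated control replicate 1 had the highest level of its group for 31 of 35 members, and replicate 2 the lowest for 32 of 35. Over all tested genes the same libraries were highest for 37.4% and lowest for 34.9%. In the stimulated labelled knockout, replicate 2 was highest for 30 of 35 and replicate 1 lowest for 29 of 35, against 34.3% and 34.6% of all genes. The ratio of the high to the low control library had a median of 1.25 over the members (range 1.02 to 2.09) and 0.996 over all genes. For the labelled knockout libraries it was 1.23 (range 0.891 to 1.81) and 0.997. Some related lists followed the same libraries and others did not. Ratios were above 1 in 80% and 85% of tRNA synthetase genes and 77.8% and 77.8% of other ATF4-CHOP targets. The shares were 76.7% and 86.7% for ER translocation and export genes and 66.7% and 88.9% for other ER folding genes. Other ERAD genes gave 63.6% and 68.2%, and mitochondrial chaperone and protease genes 60% and 60%. Other sensors and eIF2 factors gave 52.0% and 52.0%, and other one-carbon genes 58.8% and 29.4%. Heat shock genes gave 45.5% and 27.3%, and all tested genes 49.4% and 49.0%. Both arms took part, with medians of 1.24 and 1.23 in controls and of 1.29 and 1.19 in the labelled knockout. This pattern was seen in the data and then counted, and the genes share their libraries, so it is a description of these 4 libraries. In the vehicle groups no library held such a place, the most being 17 of 35 highest in vehicle replicate 1 labelled knockout.

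Further genes of these pathways were read from lists of the same kind. Of 27 tested ATF4-CHOP targets outside the 35, 16 rose and 8 fell in controls, and 18 rose and 6 fell in the labelled knockout, with medians of 0.64 and 1.14. Of all tested genes, 32.0% rose and 34.7% fell in controls, and 33.7% rose and 35.6% fell in the labelled knockout. Slc7a11, the cystine transporter, had the largest rise, from 9.23 ± 0.328 to 652 ± 39.3 CPM in controls and from 11.5 ± 0.551 to 397 ± 12.2 in the labelled knockout (SD, n = 3). Slc7a11 was lower in the stimulated labelled knockout (-0.72 ± 0.07, adjusted p = 8e-06) and its response was smaller there (-1.03 ± 0.11, adjusted p = 8.72e-05). Gdf15, a stress cytokine, was lower in vehicle labelled knockout (-1.22 ± 0.14, adjusted p = 6.58e-05) and rose by 3.18 ± 0.14 in controls and 4.10 ± 0.15 in the labelled knockout. Gadd45a, a growth arrest gene, fell by 2.21 and 2.81 on the log2 scale.

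The aminoacyl-tRNA synthetases, which charge tRNAs and include ATF4 targets, rose in 16 of 20 tested genes in controls with 0 lower. Of the same genes 17 rose in the labelled knockout and Qars fell by 0.21. All tested genes gave 32.0% higher and 34.7% lower in controls, and 33.7% and 35.6% in the labelled knockout. Rars, the arginine enzyme, rose by 1.99 ± 0.08 and 2.14 ± 0.08. Wars, the tryptophan enzyme and an interferon-induced gene, rose by 1.69 ± 0.09 and 2.27 ± 0.09, and was higher in the stimulated labelled knockout (0.55 ± 0.09, adjusted p = 0.000544).

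Of 17 tested one-carbon genes outside the members, 6 rose and 6 fell in controls, and 4 rose and 4 fell in the labelled knockout. These shares are near or below those of all tested genes given above (32.0% and 34.7%, and 33.7% and 35.6%). Gcsh of the glycine cleavage system fell by 1.23 and 2.20 on the log2 scale. Psph, which completes serine synthesis after Phgdh and Psat1, was lower in the stimulated labelled knockout (17.6 ± 0.465 against 25.0 ± 1.40 CPM, log2 -0.51 ± 0.11, adjusted p = 0.00674).

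Among 18 other ER folding genes 8 rose and 5 fell in controls, against 32.0% and 34.7% of all genes. Of the same 18, 5 rose and 5 fell in the labelled knockout, which is below the 33.7% and 35.6% of all genes. Hspa13 rose by 1.10 ± 0.10 and 1.31 ± 0.10, and Sil1, a BiP exchange factor, fell by 0.46 and 0.63. Dnajb11 and P4hb, a BiP cochaperone and a disulfide isomerase, were lower in the stimulated labelled knockout (-0.30 ± 0.09 and -0.25 ± 0.07). Of 22 other ERAD genes 14 rose and 3 fell in controls, and 12 rose and Rnf5 fell in the labelled knockout. The ERAD ligase Syvn1, partner of Sel1l, rose by 1.18 ± 0.11 and 1.66 ± 0.12. Of 30 translocation, glycosylation and export genes, 20 and 17 rose and 2 and 3 fell, with Ssr2 at 1.65 and Srpr at 1.32 in controls. Stt3b, a catalytic unit of the oligosaccharide transferase, was higher in labelled knockout both in vehicle (0.75 ± 0.08, adjusted p = 4.14e-05) and after stimulation (0.65 ± 0.09, adjusted p = 8.96e-05).

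Of 25 other sensors and eIF2 factors, 13 rose and 3 fell in controls and 14 rose and 3 fell in the labelled knockout. In all, 64.0% and 68.0% of this list passed, near the 66.7% and 69.4% of all tested genes. Eif2ak2 encodes PKR, an interferon-induced eIF2 kinase activated by double-stranded RNA. Its level went from 22.3 ± 0.671 to 204 ± 1.65 CPM in controls and from 21.3 ± 0.477 to 248 ± 8.57 in the labelled knockout (SD, n = 3), opposite in direction to the PERK gene Eif2ak3. The Creb3l1 gene, a membrane-bound relative of ATF6, was 11.7 ± 0.991 CPM in stimulated controls and 5.99 ± 0.729 in the labelled knockout (-0.97 ± 0.15, adjusted p = 0.000481), and its responses differed by -1.39 ± 0.21 (adjusted p = 0.00143).

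The cytosolic and mitochondrial folding genes gave a comparison outside the ER. Their counts stand beside 32.0% of all tested genes higher and 34.7% lower in controls, and 33.7% and 35.6% in the labelled knockout. Of 11 heat shock genes 10 rose and Bag3 fell (-0.21) in controls, and 10 rose in the labelled knockout. Hsp90aa1 rose by 1.81 ± 0.08 and 1.68 ± 0.08, and 5 of the 11 were higher in the stimulated labelled knockout, where 10% of all tested genes were, among them Hspa1a (13.1 ± 2.12 against 5.78 ± 1.04 CPM). Of 10 mitochondrial chaperone and protease genes 7 rose in each genotype, with Hspa9 at 1.12 ± 0.11 and 1.14 ± 0.11, 0 fell in controls and Clpp fell in the labelled knockout (-0.34).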

How the data were processed

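RNA sequencing measured the 12 libraries, 3 in each of 4 groups taken from the titles. Per the labels' protocols, column-purified RNA was amplified with SMARTer version 1 chemistry. The submitters' processing notes name STAR 2.0.4b, Subread, featureCounts 1.45 and GRCm38. Which annotation release and which counting options for strand were used was not given in the sources used here. The authors deposited whole-number counts per gene, the CPM (each count scaled to its library's total) and the RPKM (that CPM per kilobase of exon), per the file headers. The deposited CPM and RPKM were recomputed from the counts with 0 mismatches and entered no test.

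Tests used the deposited counts in edgeR 4.0.16 (R 4.3.3): filterByExpr by group, TMM scaling, and a robust quasi-likelihood F-test over all 12 libraries with 1 mean per group. Benjamini-Hochberg adjustment covered all 12914 genes of a comparison, with a threshold of 0.05. The interaction is the log2 response in the labelled knockout minus that in controls. CPM and RPKM in the text are TMM-scaled, and log2 changes carry their standard error. The fit was tested on simulated data. Alternatives were DESeq2 1.42.0, other scalings and filters, a replicate block, 2 groups alone, and each library left out. Members and lists were chosen with earlier results of these data known. All 35 members are named. From each other list, up to 2 genes with the highest and up to 2 with the lowest log2 fold change among the called genes were eligible to be named per comparison, if the group with more reached 10 CPM and the libraries did not overlap (no overlap rule for the interaction). Gene symbols, identifiers and loci matched GENCODE M21 for 35 of 35 members. Promoter windows come from RefSeq. Replicate libraries differed by more than counting noise. A result on 1 gene of the other lists is not reported here.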

Additional observations from a re-analysis of the deposited data

Results flagged for a closer look

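The response of Pdia4 to palmitate plus LPS differed between the genotypes in the main fit. Pdia4 rose by 0.64 ± 0.08 in controls, and its change in the labelled knockout was 0.18 ± 0.08 and did not pass. The difference was -0.47 (log2, labelled knockout minus control, edgeR adjusted p = 0.0222). The call was lost in 6 of 18 alternatives (highest edgeR adjusted p 0.0731). Under total-count scaling the labelled knockout response was -0.19. Pdia4 was the only 1 of 35 members to pass (2.86%), against 8.05% of all tested genes. Stimulated levels were lower in 3 of 3 labelled knockout libraries than in any stimulated control library. The fibroblast and neutrophil marker sums given with the genotype comparison were higher in the same libraries, while the neutrophil marker S100a8 was lower (log2 -1.11, adjusted p = 0.000367). Both sums were also higher in the vehicle labelled knockout, where Pdia4 levels overlapped those of controls. The part of these markers in this difference was not tested.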

How the results depend on the processing

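The number of ATF4-CHOP genes called higher stayed at 15 in controls and 14 in the labelled knockout under all 19 alternatives. Of the 29 members called in each treatment comparison, 25 were called under every alternative. Total-count scaling moved the median of all genes from -0.05 to -0.38 in controls and from -0.06 to -0.42 in the labelled knockout, and the share of calls that were higher from 48.0% to 29.2% and from 48.6% to 28.9%. The same share went from 62.1% to 34.8% for genotype after stimulation and from 58.4% to 33.0% for the interaction. Under it 5 members fell in controls, 5 were lower in the stimulated labelled knockout and 3 had a lower interaction, while Pdia4 in the labelled knockout (-0.19) and Calr in controls (-0.25) turned negative. Without a filter, 2 members were lower in vehicle, 1 was higher and 5 lower after stimulation, and 1 was higher and 4 lower in the interaction. With RLE, with 1 CPM in 3 libraries and with DESeq2, 1 member was higher in vehicle. DESeq2 gave 5 lower in the interaction. The 2 stimulated groups alone gave 2 higher and 5 lower. No share of all genes is set beside these member counts. Calls over all genes also changed between fits, as given below, so the member counts cannot be read alone. In the fit with a replicate block, 0 members had a lower interaction against 1. The numbers did not pair the libraries: 5 of 18 same-numbered pairs correlated above 0.1 (range -0.669 to 0.289), and 0 of 12 libraries correlated best with their own number.

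Leaving out 1 library gave 1 to 3 members lower in controls and 0 to 1 higher for genotype in vehicle. It gave 0 to 2 higher and 1 to 5 lower for genotype after stimulation, and 0 to 4 lower in the interaction. No share of all genes is given for these fits. Over all genes, genotype in vehicle gave 491 calls against 229 from 2 groups alone and 960 without a filter, genotype after stimulation 2081 against 3811 from 2 groups alone, and the interaction 1039 against 514 with the block and 1875 without a filter. The cause of these changes was not tested. Depth limits Ddit4, with 18 and 11 counts over the vehicle libraries of each genotype. In simulated data for the treatment comparison in controls (12451 genes), 34.8% of genes changed by 0.5 on the log2 scale were called and 92.5% of those changed by 1. Only 66 genes were changed by 0.5 and 67 each by 1 and by 2, while 66.7% of genes were called in the real comparison. The adjusted threshold was therefore stricter in the simulation, and these percentages do not give the power of the real comparison.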
